A study of Homo sapiens with 30 samples.

Results

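The hyperactive deaminase domains of ADAR2 (E488Q) and ADAR1 (E1008Q) were compared at A-to-G sites in messages of the human embryonic kidney line HEK 293T. The comparison holds 8 of the 30 samples in the series, 4 for each domain, and all 382978 sites in the deposited tables. Each deaminase domain (DD) was joined to the MS2 coat protein, MCP, which recognises the MS2 hairpin. The fusion was MCP-ADAR2 DD (E488Q) or MCP-ADAR1 DD (E1008Q). It carried a nuclear export signal (NES) or a nuclear localisation signal (NLS), and was transfected with (+) or without (-) an MS2 adRNA, a guide with MS2 hairpins that recruits the fusion to a chosen message. The libraries were chosen by these labels, and an ADAR2 library was paired with the ADAR1 library that had the same signal and guide. All 8 were transient transfections, with poly(A) RNA taken after 60 h, and the labels name no change to the cells' own ADAR genes. The control was the mean of 3 sequencing runs of 1 library from untransfected cells. Every transfected condition had 1 library, so an SD given below is over 4 libraries that differ in signal and guide, or over the 4 pairs, and is not an error between repeated transfections. The amount of each fusion was not analysed here, so the domain and its amount cannot be told apart. The tables hold no expression values, and the identity of the line was not checked against markers.

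ADAR enzymes convert adenosine to inosine in double-stranded RNA, and inosine is read as guanosine in cDNA. The deaminase domain turns the target base out of the helix into its active site, and the glutamate replaced here lies in the loop that takes part in this step. Replacing it with glutamine gives a more active enzyme. Both enzymes are known to disfavour a guanosine just 5′ of the edited base. ADAR1 is known for editing repeats in untranslated regions, and ADAR2 for recoding sites such as the one in the glutamate receptor message GRIA2.

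A short coding stretch of ZFR shows the difference between the domains at adenosines only a few bases apart, and is printed for that reason. It comes from a GENCODE release 29 transcript (GRCh38), 5′ to 3′ on the message, from the minus strand of chr5:32406936-32406965, and capitals mark the adenosines that are listed in the tables. ZFR codes for a zinc finger protein that binds double-stranded RNA.
ZFR: caAcagcAgcAgcAgcAAcAgaAgcaggca

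Windows of 21 bases show single sites with the largest differences. Capitals mark the edited adenosine, at the middle, with its neighbour on either side. The first 4 were edited more with ADAR2 DD (E488Q), the next 4 more with ADAR1 DD (E1008Q), and the last 2 to a high level with both. Coordinates of the edited bases are given with their values.
MICALL1: ggctggcagCAGcagcctggt
SELENOT: tttgaggagTACatgcgggtt
CNN2: tgggcttggAAGgaaccggtc
CDKN1A: agatctttcTAGgagggagac
GATAD1: atcattgttTATtactggtca
DIP2A: accacctccAAGaaaagcagt
SNRPB: acaggtgatGACcccacaagg
PCNA: agatatcatTACactaagggc
PPP1R15A: ccctgggagCAGcttgctcgg
SDC4: gggctgtgcTATccaatacag

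Editing was several times more widespread with ADAR1 DD (E1008Q) than with ADAR2 DD (E488Q), and the order was the same with either signal and with or without guide. The measure is the share, the percentage of reads with G at a site. Over all sites, the mean share with ADAR2 was 2.92% for NES without guide, 3.29% for NES with guide, 2.56% for NLS without guide and 3.10% for NLS with guide. With ADAR1 it was 11.4%, 10.4%, 6.05% and 7.09% in the same order, which is used for every list of 4 shares below. No ADAR2 library reached the lowest ADAR1 library, and the untransfected mean was 0.153%. The difference, ADAR2 minus ADAR1, was -5.75 ± 2.40 points (SD, n = 4 pairs), and the exact two-sided sign-flip permutation test gave p = 0.125, the smallest value that 4 pairs allow. The ratio of ADAR1 to ADAR2 was 3.90 and 3.15 in the NES pairs and 2.37 and 2.29 in the NLS pairs.

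More sites were called as edited with ADAR1, and high levels were more frequent. A call required a share above the untransfected mean together with an adjusted p below 0.01 from the authors' deposited table. By that rule and the authors' deposited table, 35283, 42713, 28023 and 38080 sites were called with ADAR2 (9.21%, 11.2%, 7.32% and 9.94% of the sites listed). With ADAR1 they were 226614, 195521, 90166 and 110559 (59.2%, 51.1%, 23.5% and 28.9% of the sites in the authors' deposited table). The ratio was 4.07 as a geometric mean, 2.90 to 6.42 over the pairs, with exact permutation p = 0.125. The median share of the called sites was 9.93%, 10.1%, 9.52% and 9.86% with ADAR2 and 12.3%, 12.3%, 11.2% and 11.8% with ADAR1, a ratio of 1.21. These medians are over each library's own calls, which are different sites and had to pass a minimum level, so they do not compare the domains at shared sites. Toward high levels the gap widened: sites at 10% or more were 3.47 times as many with ADAR1, sites at 20% or more 4.81 times and sites at 50% or more 8.22 times. Calls with ADAR2 lay in 4451 to 5374 genes and calls with ADAR1 in 7045 to 8313.

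**Figure D1:**
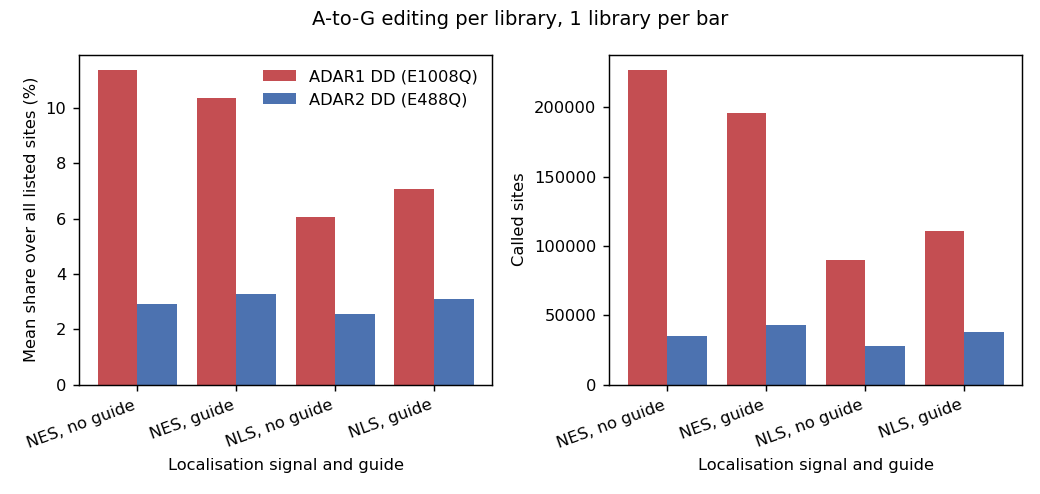
Mean share over all listed sites in percent (left) and called sites (right) for the 4 combinations of localisation signal and guide, with 1 library per bar. Every ADAR1 DD (E1008Q) bar (red) is above every ADAR2 DD (E488Q) bar (blue) in both panels, 6.05% to 11.4% against 2.56% to 3.29% in the left one.

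Single sites were compared with limma after an arcsine square root transformation, with the domain, the signal and the guide as terms and Benjamini-Hochberg adjustment over all sites. At an adjusted p under 0.05 the domains differed at 215079 sites (56.2%). ADAR2 was lower at 206326 sites (53.9%) and higher at 8753 (2.29%). These percentages, like the mean shares above, are over the deposited list. Its rule for choosing sites is not given, so whether it favours sites of either domain is unknown. The 4 ADAR2 shares all lay below the 4 ADAR1 shares at 177522 sites (46.4%) and all above them at 7450 (1.95%). These counts changed when the overall level was evened out. With every library scaled to the same mean share, lower sites were still the more numerous, at 90880 (23.7%) beside 38424 (10%) higher with ADAR2. The higher count includes sites at which the deposited shares were near equal. The TMPO site named below, at 94.1% with ADAR2 and 93.8% with ADAR1, is an example (limma adjusted p = 0.00935 after scaling). Scaling raises every ADAR2 share relative to ADAR1, so sites already higher on the shares as deposited could hardly turn. Of those 8753, 8625 were also higher after scaling, which is no independent support. Of the 206326 lower sites, 90880 were also lower after scaling and 2113 were called higher. Of the 3320 genes with a site higher with ADAR2, 3293 also had a lower one. A lower site was near the rule, in 8420 of all 8779 genes with an annotated site. Leaving out a pair lowered the counts to 4517 higher and 106935 lower (without the NES pair lacking guide), 2994 and 95086 (NES with guide), 4513 and 161221 (NLS lacking guide) and 3732 and 149389 (NLS with guide). The fit has 4 residual degrees of freedom, and false calls are controlled over both directions jointly, not within the smaller set.

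Large differences went mostly 1 way, and sites strongly edited by ADAR2 were seldom spared by ADAR1. The mean difference was 30 points or more at 61 sites higher with ADAR2 and at 6814 lower sites. At 36 sites all 4 ADAR2 libraries were at 20% or more while all 4 ADAR1 libraries were under 5%, and the reverse held at 2987. All 8 libraries were at 20% or more at 2896 sites, which are 70.0% of the 4140 sites at that level in all ADAR2 libraries and 14.6% of the 19841 at that level in all ADAR1 libraries. Among the 6715 sites with a mean of 40% to 60% with ADAR1, the median ADAR2 share was 14.9%, and from lower to upper quartile it was 7.47% to 24.9%. Across sites, Pearson's r between paired libraries was 0.52, 0.54, 0.56 and 0.56. It describes sites that share 1 selected list and libraries of unknown depth.

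**Figure D2:**
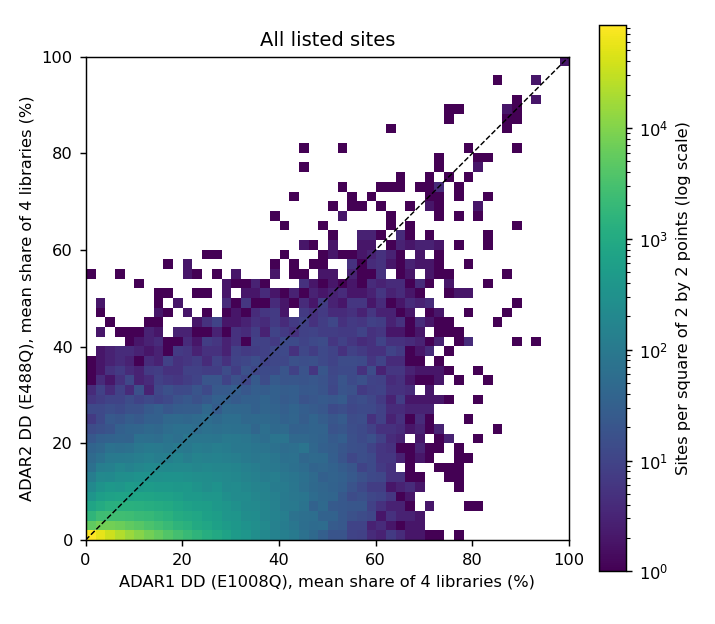
Number of sites (colour, log scale) by the mean share of the 4 ADAR1 DD (E1008Q) libraries (horizontal, %) and of the 4 ADAR2 DD (E488Q) libraries (vertical, %), in squares of 2 by 2 points. Most sites lie under the dashed line of equal shares, 206326 of them past the limma threshold, while a thinner set of 8753 lies past it on the other side.

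The preference held in libraries that had no part in choosing the sites. Where ADAR2 was higher by 20 points or more in both NES pairs, 239 of 247 sites (96.8%) were also higher with ADAR2 in both NLS pairs, with a median difference there of 22.4 points. Among all listed sites, 9.79% were higher with ADAR2 in both NLS pairs. Chosen in the NLS pairs in the same way, 253 of 294 sites (86.1%) were higher in both NES pairs, beside 5.14% of all sites. With 10 points in place of 20, sites chosen in the NLS pairs were higher in both NES pairs at 73.3% of 2003 and lower in both at 175 sites. Sites at which ADAR1 was higher by 20 points in both NES pairs were higher in both NLS pairs at 94.9% of 28572, beside 61.2% of all sites.

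The ZFR stretch held 8 listed adenosines, most of them in a run of glutamine codons, and the domains split them. At chr 5, position 32406946 (Q287R, base 20 of the printed stretch) the ADAR2 shares were 55.7%, 60.6%, 59.3% and 53.7%, and the ADAR1 shares 21.3%, 20.9%, 13.6% and 14.0%. All ADAR2 libraries were above all ADAR1 libraries, by 39.9 ± 4.62 points (SD, n = 4 pairs, limma adjusted p = 0.00136). Just 9 bases upstream, at position 32406955 (Q284R, base 11), they were 8.87%, 4.38%, 5.66% and 1.56% with ADAR2 and 58.3%, 61.1%, 44.2% and 52.9% with ADAR1. Here the order was turned round, with ADAR2 lower by 49.0 ± 7.61 points (limma adjusted p = 0.00133). Between them, the adenosine of the silent Q286Q change at position 32406948 was edited to a high level with both domains, at 80.2%, 78.3%, 75.0% and 74.3% with ADAR2 and 74.5%, 79.7%, 65.0% and 71.8% with ADAR1. Those groups overlapped (limma adjusted p = 0.326). Q286R, the base before it, had means of 38.0% and 40.2%, and K288R, 3 bases after Q287R, was again lower with ADAR2, at 16.8 ± 3.06% against 49.0 ± 4.73% (SD, n = 4 libraries, limma adjusted p = 0.0015). The other 3 sites were below 20% on average with both domains. Untransfected cells were at 0% for Q287R, 0.439% for Q286Q and 1.75% for Q284R.

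The same reversal was seen over 15 bases in ZNF496, a zinc finger gene on chr 1. At E34G (position 247329478) the shares were 48.4%, 56%, 61.9% and 50% with ADAR2 and 22.2%, 20%, 13.3% and 25% with ADAR1. At E39G (position 247329463) they were 3.85%, 9.52%, 0% and 5.56% against 46.2%, 45.2%, 20% and 45.8%. Neither pair of groups overlapped, and the differences were 33.9 ± 10.9 points (limma adjusted p = 0.00282) and -34.6 ± 10.1 points (limma adjusted p = 0.00168). The ADAR1 NLS library without guide was the lowest of the ADAR1 libraries at both sites.

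CNN2, which codes for the actin-binding calponin 2, had 2 sites 17 bases apart in its 3′ UTR (chr 19). Position 1038198 was at 37.6%, 47.5%, 29.6% and 38.5% with ADAR2 and at 2.83%, 5.15%, 0.926% and 5.43% with ADAR1. Position 1038181 was at 7.08%, 7.14%, 6.12% and 10.5% against 32.6%, 45%, 31.4% and 43.0%. The order of the domains was opposite at the 2 sites, again with no overlap, and limma adjusted p was 0.00133 and 0.00142. A lower site within 30 bases was no mark of the sites that rose with ADAR2: 59.7% of 7092 such sites in exons of 1 protein-coding gene had one, and so did 59.2% of all listed sites with that annotation.

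**Figure D3:**
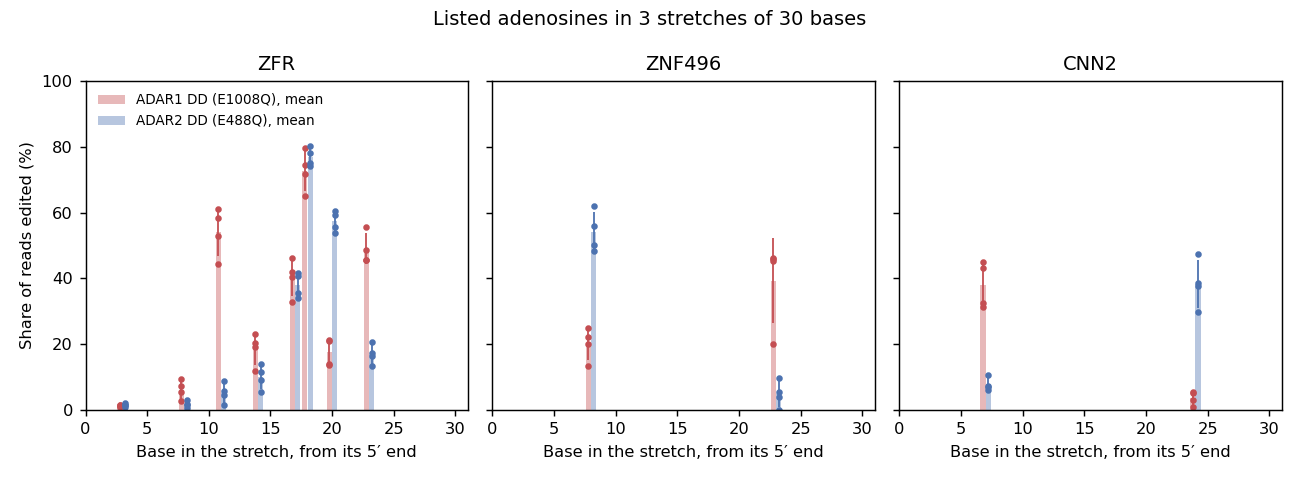
Share of reads edited (%) at each listed adenosine of a stretch of 30 bases in ZFR, ZNF496 and CNN2, by its place in the stretch from the 5′ end. Bars are means and lines are SDs of 4 libraries, and points are single libraries. In ZFR the taller bar changes from ADAR1 (red) at base 11, 54.1% against 5.12%, to ADAR2 (blue) at base 20, 57.3% against 17.4%.

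Among the 12 largest differences in favour of ADAR2, at most 1 site per gene, 10 are given here, in PLEKHM1, POLR2A, NMU, MICALL1, ZFR, NOTCH2, HECA, CNN2, SELENOT and CDKN1A. The 4 ADAR2 libraries were above the 4 ADAR1 libraries at these 10, whose mean differences ran from 34.3 to 46.1 points. PLEKHM1, an adaptor of late endosomes and lysosomes, had the largest one, at K1037R (chr 17, position 45437919). There the shares were 37.0%, 44.8%, 69.2% and 47.8% with ADAR2, and 4.08%, 10.3%, 0% and 0% with ADAR1. The ADAR1 NLS libraries were at 0 while the ADAR2 NLS library without guide was the highest of all (46.1 ± 16.8 points, limma adjusted p = 0.00421). The POLR2A site (chr 17, position 7501617), in the gene for the largest subunit of RNA polymerase II, lies in an exon annotated as noncoding. It was at 41.7%, 42.6%, 46.4% and 56.3% with ADAR2 and at 5.48%, 6.25%, 0.939% and 2.55% with ADAR1. MICALL1 S337G (chr 22, position 37922411), in a gene of endosome recycling, was at 61.9%, 57.5%, 50% and 39.1% against 18.9%, 17.9%, 5.88% and 4.84%. Both domains were lower there with NLS than with NES, and the difference between them stayed near 40.2 ± 4.42 points (limma adjusted p = 0.00133).

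At several of these sites ADAR1 was close to the untransfected level. SELENOT Y58C (chr 3, position 150622420), in a selenoprotein of the endoplasmic reticulum, was at 39.3%, 40.1%, 27.2% and 38.1% with ADAR2 and at 1.01%, 2.86%, 1.52% and 1.03% with ADAR1, beside 0.221% in untransfected cells. The 3′ UTR site of CDKN1A (chr 6, position 36686877), the gene of the cell cycle inhibitor p21, was at 37.3%, 49.4%, 20.2% and 36.5% against 2.88%, 3.37%, 0% and 0%. The authors' deposited table gave no call with ADAR1 at either, and a call in 4 of 4 ADAR2 libraries at both. The NOTCH2 receptor site N1642S (chr 1, position 119922713) had means of 44.2 ± 7.78% and 5.97 ± 5.61% (limma adjusted p = 0.00175). The 5′ UTR sites of NMU (chr 4, position 55636260), the neuromedin U gene, and HECA (chr 6, position 139135363) had 43.8 ± 4.72% against 3.52 ± 2.97% and 56.6 ± 8.26% against 20.9 ± 8.33%.

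In the other direction the largest differences were wider, from -73.1 to -63.2 points over 12 sites in as many genes, and ADAR2 was often at or near 0. The 3′ UTR site of GATAD1 (chr 7, position 92456822), a GATA-type zinc finger gene, was at 0% in all 4 ADAR2 libraries and at 75.0%, 82.5%, 75.4% and 56.8% with ADAR1. SNRPB T143A (chr 20, position 2463221), in a core protein of spliceosomal small nuclear ribonucleoproteins, was at 0.181%, 0.504%, 0.28% and 0.432% with ADAR2 and at 72.7%, 74.3%, 64.0% and 63.8% with ADAR1. Every ADAR2 library was close to the untransfected 0.17% there (limma adjusted p = 0.00133). SGCE N49S (chr 7, position 94629805), in a sarcoglycan gene, had the largest difference, with 8.00%, 20.0%, 0% and 0% against 87.2%, 97.7%, 77.3% and 58.3%. Both ADAR2 NLS libraries were at 0, and the groups did not overlap (limma adjusted p = 0.00133).

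The other sites of this kind lay mainly in 3′ UTRs. They were ORC6 (chr 16, position 46698017, origin recognition complex) at 1.47 ± 0.329% against 70.4 ± 7.48%, COPA (chr 1, position 160289706, coat protein of COPI vesicles) at 2.02 ± 1.81% against 68.1 ± 7.81%, and STK35 (chr 20, position 2146936, a kinase) at 0% in every ADAR2 library against 66.0 ± 9.53%. FHL2 (chr 2, position 105361083, a LIM domain protein) kept 12.0 ± 3.04% with ADAR2 beside 77.1 ± 11.5% with ADAR1. DCK (chr 4, position 71029868, deoxycytidine kinase) and KLHL15 (chr X, position 23985791) had 1.79 ± 2.21% against 65.8 ± 7.01% and 1.39 ± 1.60% against 64.6 ± 10.5%. In coding sequence, BRPF3 N497D (chr 6, position 36204698) had 1.41 ± 2.08% against 69.1 ± 5.27% and ERBIN L166L (chr 5, position 66014690) 1.28 ± 1.5% against 66.4 ± 5.71%. PGBD1 had the only 5′ UTR site of the 12 (chr 6, position 28281669), at 3.03 ± 3.51% against 66.5 ± 8.20%. The 4 ADAR2 libraries were below the 4 ADAR1 libraries at all 12 sites.

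Some adenosines had a high share of reads with G whichever domain was used. The 6 sites with the highest minimum over the 8 libraries, in TMPO, PSMB2, RPL5, RPL7L1, RBBP4 and BPNT1, were already at 55.7% to 96.5% in untransfected cells, and 5 of them did not pass the limma threshold. RBBP4 (chr 1, position 32683901) was at 88.3 ± 6.64% with ADAR2 and 76.2 ± 3.06% with ADAR1 (limma adjusted p = 0.0377, and 0.146 to 0.302 when any single pair was left out), with overlapping groups. For this reason the 6 highest sites that were under 1% in untransfected cells were also named, a choice made after the values were seen. They were ZFR Q286Q and sites in PPP1R15A, SKA1, SDC4, ZFAND3 and TUFT1. PPP1R15A Q584R (chr 19, position 48875699), in a stress-induced subunit of a phosphatase, was at 64.7%, 69.2%, 60.3% and 79.3% with ADAR2 and at 72.4%, 68.7%, 70.8% and 75.2% with ADAR1. The SDC4 site (chr 20, position 45325878), in the 3′ UTR of a syndecan gene, was at 64.6%, 77.3%, 63.6% and 65.2% against 85.3%, 80.2%, 70.6% and 59.3%. The ranges overlapped at both and at the other 4, and limma adjusted p lay between 0.175 and 0.552.

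**Figure D4:**
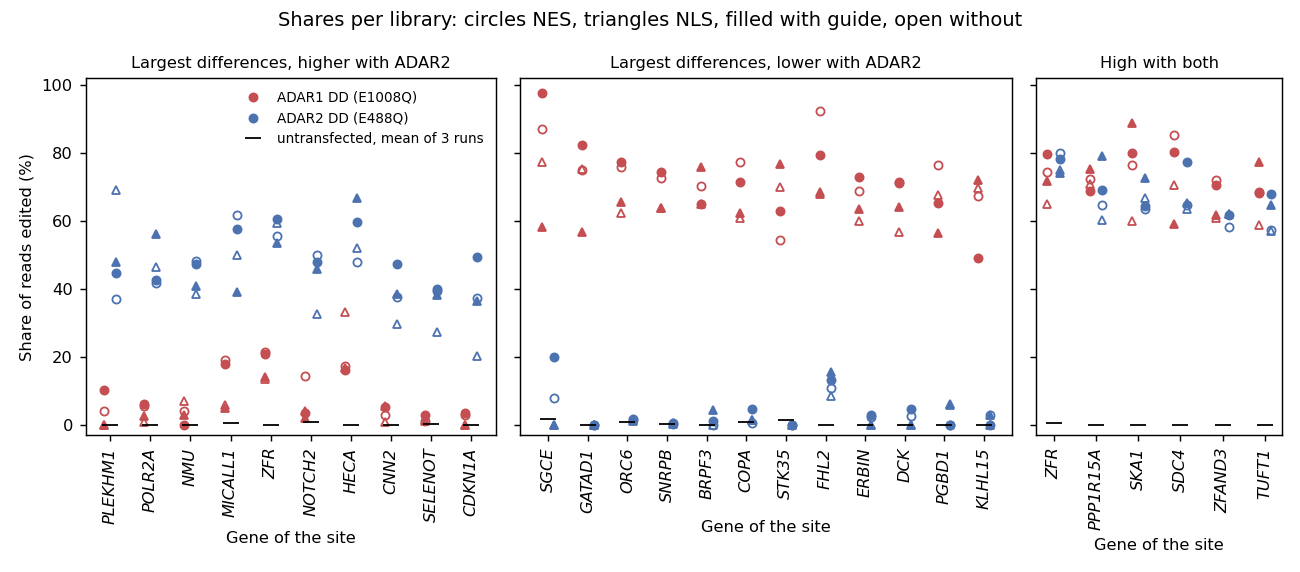
Share of reads edited (%) in each library at 10 of the 12 sites most in favour of ADAR2 DD (E488Q) (left), the 12 most in favour of ADAR1 DD (E1008Q) (middle) and 6 sites high with both and under 1% in untransfected cells (right). Red and blue points separate fully in the left and middle panels and overlap at every site of the right one, and black dashes are untransfected means.

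Further recoding sites, which change an amino acid, differed by similar amounts. The largest in favour of ADAR2 outside the sites above included ZNF496 E34G, already given, with FLNA T1065A, LENG1 E228G and MAN2B2 Q406R. FLNA, the actin cross-linker filamin A, is a natural substrate of ADAR2 at another site. At T1065A (chr X, position 154361322) it was at 62.8%, 63.3%, 41.2% and 54.7% with ADAR2 and at 34.0%, 34.3%, 10.6% and 8.23% with ADAR1. The ADAR1 NLS libraries were lowest, and no ADAR1 library reached an ADAR2 one (limma adjusted p = 0.00252). LENG1 E228G (chr 19, position 54155833) had means of 39.1 ± 7.13% and 5.61 ± 5.58%. MAN2B2 Q406R (chr 4, position 6597272), in a mannosidase gene, varied most, at 25.9%, 45%, 40% and 70.0% against 20.0%, 18.8%, 10.0% and 0%, and its limma adjusted p of 0.0403 became 0.0592 to 0.132 when any single pair was left out.

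In favour of ADAR1 they were E2F2 K108R, DIP2A R689G, GABARAPL1 Q4R, PCNA T89A and GPRASP2 E519G. DIP2A R689G (chr 21, position 46541784) was at 0% in every ADAR2 library and at 59.1%, 63.6%, 65.5% and 63.6% with ADAR1 (limma adjusted p = 0.00133). PCNA T89A (chr 20, position 5118823), in the sliding clamp of DNA replication, was at 1.57%, 1.96%, 0.824% and 1.53% against 76.1%, 73.9%, 53.8% and 53.8%. Both ADAR1 NES libraries were above both NLS libraries there (limma adjusted p = 0.00133). E2F2 K108R (chr 1, position 23524418), in a cell cycle transcription factor, had 5.78 ± 3.98% and 68.8 ± 7.59%. GABARAPL1 Q4R (chr 12, position 10213140), in an autophagy protein of the ATG8 family, had 12.8 ± 2.88% and 75.7 ± 4.15%, and GPRASP2 E519G (chr X, position 102716425) 7.39 ± 4.37% and 70.1 ± 7.38%.

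Cytidine upstream of the edited base was more common with ADAR2. Each site was weighted by the part of its share above the untransfected mean. A value is the percentage of a library's summed weights over annotated sites, called editing here. Sites count alike whatever the amount of their message, so it is not a percentage of edited molecules. The base just 5′ was cytidine for 29.3% of editing with ADAR2 and 24.9% with ADAR1, a difference of 4.39 ± 0.37 points with the same sign in 4 of 4 pairs. Adenosine there was 3.43 ± 0.32 points less common with ADAR2, at 34.3% against 37.7%. Guanosine, the disfavoured neighbour of both enzymes, was at 8.22% and 8.12%, and uridine at 28.2% and 29.2%. The exact sign-flip permutation test gave p = 0.125 for cytidine, adenosine and uridine (0.167 adjusted over the 4 bases) and p = 0.375 for guanosine. At the base 3′ of the site, guanosine was 2.10 ± 0.12 points more common with ADAR2 and adenosine 1.93 ± 0.09 points less common, each in 4 of 4 pairs (exact p = 0.125). With each called site counted once, these differences kept their sign, at 2.08 and -2.51 points. Between the higher and lower sites past the limma threshold, the 3′ order was the opposite. Guanosine followed 55.9% of the sites higher with ADAR2 and 58.1% of the lower ones, and adenosine 12.6% and 12.2%. Among all annotated sites they followed 58.7% and 11.7%. Upstream, cytidine preceded 38.2% of the higher and 25.3% of the lower sites, adenosine 24.9% and 38.9%, and guanosine 21.8% and 10.1%. Among all annotated sites, cytidine preceded 30.1%, adenosine 35.6% and guanosine 12.1%.

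The next base upstream differed more than the nearest one. At place -2, cytidine made up 41.3% of editing with ADAR2 and 35.0% with ADAR1 (6.30 ± 0.26 points), whereas uridine (-4.71 ± 0.08 points) and adenosine (-3.84 ± 0.10 points) were less common with ADAR2. When the 2 upstream bases were read together, the ratio of ADAR1 to ADAR2 mean share was lowest after GG, where it was 1.75 (1.37 to 2.46 over the pairs), and after CC, where it was 2.02. It was highest after UA, at 4.15 (3.36 to 5.62), and near that after UG, UU and AA, at 4.09, 4.07 and 4.04. Thus a 5′ guanosine went with the smallest ratio after another guanosine and with one of the largest after uridine. Of the sites after GG, 7.82% were higher with ADAR2 past the limma threshold and 30.1% were lower. After UU these were 0.931% and 70.4%, and over all sites 2.29% and 53.9%. The wild-type domains, measured in 8 other libraries, gave ratios of 1.70 after GG and 2.12 after CC, against 5.45 after UA, 5.19 after UU and 5.38 after AA. After UG the wild-type ratio was 4.32, below the 4.70 after AU. Wild-type ratios are of means over 4 libraries, whereas those of the more active forms are geometric means over the pairs.

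**Figure D5:**
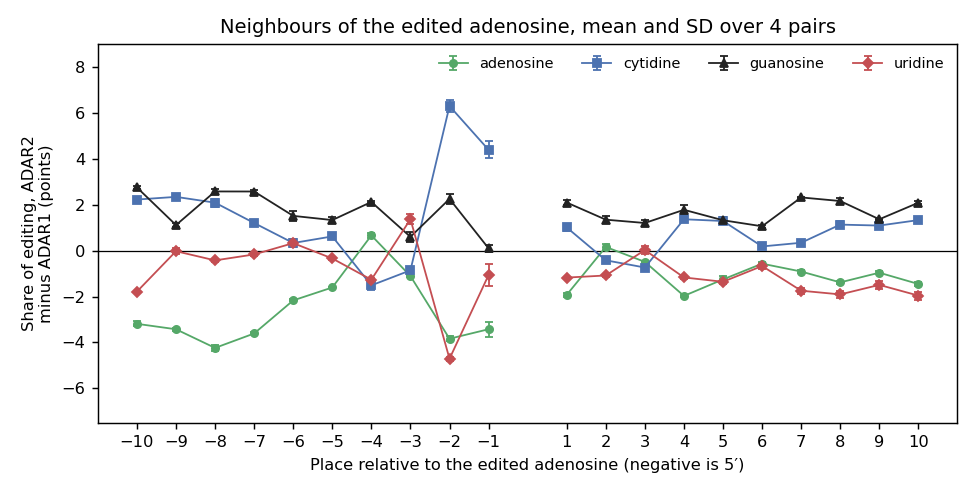
Percentage of editing with each base at places -10 to 10 from the edited adenosine, ADAR2 DD (E488Q) minus ADAR1 DD (E1008Q) in points, as mean and SD over 4 pairs. Cytidine stands highest at place -2, at 6.30 points, with uridine lowest there, at -4.71 points.

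The wider sequence differed too. The GC content of a window of 50 bases to either side of the site, weighted by editing, was 56.5% with ADAR2 and 53.8% with ADAR1, or 2.71 ± 0.05 points more with the same sign in each pair (exact permutation p = 0.125). In structures predicted for these windows with ViennaRNA, the edited base was unpaired with a mean probability of 65.2% with ADAR2 and 63.8% with ADAR1, and the 41 bases around it were unpaired with 42.8% and 43.8%. With each called site counted once, the difference at the edited base was 2.70 points in place of 1.34. By single sites the order was the opposite, with a mean of 58.9% at sites higher with ADAR2 and 60.2% at lower sites, and all annotated sites were at 60.2%. Coding sequence held 65.1% of editing with ADAR2 and 63.6% with ADAR1, and 3′ UTRs 29.1% and 30.8%, in the same direction in 4 of 4 pairs. With each called site counted once these differences, 1.48 and -1.73 points, became 3.91 and -3.94 points. Among codon changes, glutamine to arginine had the lowest ratio of ADAR1 to ADAR2 mean share, 2.25 (1.80 to 3.09 over the pairs) over 21909 sites. It took 10.2% of the editing in coding sequence with ADAR2 against 8.21% with ADAR1. The highest ratio was 3.82, for asparagine to aspartate.

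Every gene list had more sites lower than higher with ADAR2, and genes of natural ADAR substrates had the largest percentage of higher ones. All listed adenosines in exons of these genes were counted, and the natural sites were not singled out. Of 14 genes in that list with sites, among them filamin A (FLNA), the antizyme inhibitor AZIN1 and the actin regulator CYFIP2, 138 of 1650 sites were higher with ADAR2 (8.36%, beside 2.29% of all sites) and 692 were lower (41.9%, beside 53.9%). The median difference was -2.12 points in the list and -3.39 over all sites. FLNA alone gave 76 of the 138 higher sites among its 426, and the other 13 genes had 62 of 1224 (5.07%) higher and 48.8% lower. After scaling to the same mean share, 23.5% of the list's sites were higher and 15.0% lower. Without FLNA, 16.7% were higher and 19.2% lower, beside 10% and 23.7% of all sites. The higher counts after scaling can include sites with near-equal deposited shares. BLCAP and COG3 had no higher site among 16 and 6, and COPZ1 had 1 among 106.

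In the other lists 1.33% to 2.72% of sites were higher with ADAR2 and 45.7% to 58.1% lower, beside 2.29% and 53.9% of all sites. The lists lay on either side of these shares, and no set test was run. Cytosolic ribosomal proteins had 164 higher and 2832 lower among 6197 sites, with low levels throughout (medians of 0.32% with ADAR2 and 1.19% with ADAR1). Splicing factors had 136 and 3747 among 6648. SF3A1 Q517R (chr 22, position 30338982), in a subunit of the U2 particle, was at 7.44 ± 2.62% against 65.6 ± 5.70%. Zinc finger ZNF genes had the highest medians, 1.47% and 8.10%, with 66 higher and 2836 lower among 4981 sites. ZNF71 Y274C (chr 19, position 56621928) was at 5.60 ± 2.15% and 67.0 ± 5.56%, and ZNF408 S345G (chr 11, position 46704733) at 4.30 ± 5.77% and 65.2 ± 2.83%. DNA repair genes had 48 and 1781 among 3063 sites, and genes of mitotic kinases, cohesin and kinetochore 57 and 1329 among 2449. In the cohesin subunit gene SMC1A the silent T913T site (chr X, position 53396350) was at 11.2 ± 4.61% and 54.5 ± 7.37%, and in the condensin gene SMC4, L527L (chr 3, position 160417866) was at 16.2 ± 2.73% and 64.2 ± 4.25%. Scaled to the same mean share, neither passed the limma threshold (adjusted p = 0.0732 and 0.123). Histone genes had 20 and 405 among 734, with H2AFY E365E (chr 5, position 135335000) at 2.95 ± 1.09% and 45.3 ± 12.9%. Genes for double-stranded RNA deaminases and binding proteins had 54 and 1006 among 2032. In SON, a protein of nuclear speckles in that list, E311G (chr 21, position 33550163) was at 3.84 ± 2.07% and 51.5 ± 3.96%. Solute carriers had 105 and 2263 among 4445 sites, with SLC43A1 Y533C (chr 11, position 57485178) at 4.47 ± 0.642% and 62.9 ± 14.5%. Mitochondrial ribosomal proteins had 41 and 1102 among 1933, and the 3′ UTR site of MRPS35 (chr 12, position 27755918) was at 7.70 ± 2.09% and 61.7 ± 6.22%.

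Single genes rarely favoured ADAR2 as a whole. Of 4696 genes with at least 20 listed sites, 3 had more sites higher than lower with ADAR2, and the median gene had 1.49% higher and 55.6% lower. The largest shares of higher sites were in GPX3, a secreted glutathione peroxidase, with 8 of 23, TCTA with 9 of 32, LAMTOR4, of the lysosomal Ragulator complex, with 6 of 23, NOP9 with 7 of 36 and GADD45A, a DNA damage response gene, with 6 of 33. Of these 5, TCTA and NOP9 had fewer lower sites (7 and 3) than higher ones. The most lower sites were in PRRC2A with 491 of 792, SRRM2, a splicing scaffold, with 364 of 557, PRRC2B with 348 of 628, HCFC1 with 314 of 598 and the translation factor gene EIF4G1 with 278 of 450, genes with many listed sites.

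The guide target is the message of RAB7A, a small GTPase of late endosomes. Its 3′ UTR site at chr 3, position 128814202, was chosen as the one with the largest guide effect, so its rise with guide is a description, and its window is printed here with the adenosine and its neighbours in capitals.
RAB7A: aaatccagcTAGcggcagtat

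With ADAR2 the RAB7A share was 0.467% for NES without guide, 27.8% for NES with guide, 1.48% for NLS without guide and 11.3% for NLS with guide. With ADAR1 it was 1.04%, 41.9%, 0% and 26.2%. With guide, ADAR1 was above ADAR2 in both pairs, and NES was above NLS for both domains. Without guide, NES was below NLS with ADAR2 and above it with ADAR1. The untransfected runs were at 0%, 0.606% and 1.75%, and the guide alone at 0.667%. The difference between domains did not pass the limma threshold here (adjusted p = 0.415), and with 1 library per condition the 2 pairs with guide give no test of their own.

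Neither signal nor guide changed the difference between domains past the threshold at any site. The limma interaction of domain and signal gave 0 sites at an adjusted p under 0.05, with 60858 (15.9%) at an unadjusted p under 0.05, and that of domain and guide gave 0, with 12231 (3.19%). Each of these fits has 3 residual degrees of freedom. Without the intensity trend, and on untransformed shares, both interactions also gave 0 sites. The ratio of mean shares was higher in both NES pairs than in both NLS pairs, as given above, and with 2 pairs on each side this was not tested.

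Wild-type domains, in 8 libraries that the comparison did not use, ranked most sites the same way. Of the 206326 sites lower with ADAR2 DD (E488Q), the mean of the 4 wild-type ADAR2 libraries was below that of the 4 wild-type ADAR1 libraries at 96.7%, beside 86.2% of all sites. Of the 8753 higher sites, wild-type ADAR2 was above wild-type ADAR1 at 80.7%, beside 11.7% of all sites. The median wild-type difference at these was 1.32 points, beside 5.82 points for the more active forms. At the 61 sites higher by 30 points or more, wild-type ADAR2 was above at 60. CNN2 (position 1038198) was at 40.5% with wild-type ADAR2 and 5.29% with wild-type ADAR1, and MICALL1 at 43.5% and 6.51%, as means of 4 libraries. CDKN1A was at only 9.23% and 2.08%. On the ADAR1 side, GATAD1 was at 3.68% and 73.4% with the wild-type domains, beside 0% and 72.4% with the more active forms, while SON E311G was at 1.18% and 13.9%. The difference between domains itself differed between the more active and the wild-type forms at 14127 sites (3.69%) by the limma interaction over all 16 MCP libraries, toward ADAR2 in the more active forms at 948 (0.248%) and toward ADAR1 at 13179 (3.44%). Between the wild-type domains, limma called 2429 sites higher with ADAR2 (0.634%) and 86056 lower (22.5%).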

How the data were processed

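Poly(A) RNA was read as paired ends on a HiSeq, per the labels' protocols. Tools named without settings in the submitters' processing notes are STAR 2.6.0c, bcl2fastq 2.18.0.12 and SAMtools, with build GRCh38.p12. The authors deposited the fraction of reads with G per site and library, printed here as percent, and adjusted p-values for the same sites. Not given in the sources used here are the test behind those deposited p-values, its reference and the rule for listing sites. These files give shares without read counts, so the depth of each library is unknown and shares carry no counting interval. In all, 9 share columns and 8 p-value columns were not used, among them a share column without a sample name, so 3 of 4 untransfected runs made the control.

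Sites were annotated with GENCODE release 29 using bedtools 2.31.1 and Python 3.11.15. A single gene's exons held 352939 sites, of which 352425 (99.85%) read as adenosine in the transcript and gave neighbours, regions and gene lists. For 27757 sites, exons of several genes overlap, and strand was not stated to be kept. Structures of 101 bases were predicted with ViennaRNA 2.7.2.

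limma 3.58.1 (R 4.3.3) was fitted to all 382978 sites in the 8 libraries, with domain, signal and guide as terms, an intensity trend and Benjamini-Hochberg adjustment. The code was tested on simulated data. Interactions with signal and guide were fitted in the same 8 libraries, and that with the E-to-Q change in all 16 MCP libraries. Values over whole libraries used exact two-sided sign-flip permutation tests over 4 pairs, which cannot pass 0.05. Named sites lie in exons of exactly 1 protein-coding gene, at most 1 per gene and set, not on chromosome 8. They are the 12 largest differences each way past the threshold with 1 sign in 4 of 4 pairs, the 6 highest minima, 5 further recoding sites each way, 5 pairs of opposite neighbours within 30 bases, the RAB7A site and 2 sites of each gene list. No 51-base window around a named site occurs in the transcripts of another gene. The members, rules and gene lists were chosen with earlier results of these data known. Some sites and genes that these rules pick are not reported here.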

Additional observations from a re-analysis of the deposited data

Results flagged for a closer look

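At 14127 of 382978 sites (3.69%) the difference between the ADAR2 and ADAR1 domains was not the same in the E-to-Q forms as in the wild-type forms, by the limma interaction of domain and variant in the 16 MCP libraries at an adjusted p under 0.05. The difference of ADAR2 minus ADAR1 was larger in the E-to-Q forms at 948 of them (0.248%) and smaller, meaning further toward ADAR1, at 13179 (3.44%). Values below are that interaction on the arcsine square root scale.

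Among the named sites, 5 passed. The interaction was 0.252 at the POLR2A site and 0.389 at the CDKN1A site, where ADAR2 was further above ADAR1 in the E-to-Q forms. In CDKN1A the wild-type means were 9.23% with ADAR2 and 2.08% with ADAR1, and the E-to-Q means 35.8% and 1.56%. It was -0.322 at ORC6, -0.335 at DIP2A R689G and -0.33 at SON E311G, where ADAR2 was further below ADAR1 in the E-to-Q forms. These sites had been named for their difference in the E-to-Q libraries, which enter the interaction.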

How the results depend on the processing

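Depth is unknown and each condition has 1 library, so a share of 0 or a difference of a few points carries no stated precision. With NLS libraries alone (1 residual degree of freedom) limma gave 0 calls in either direction, with 131690 sites at an unadjusted p under 0.05, and with NES libraries alone 2778 sites higher with ADAR2. Scaling every library to the same mean gave 129304 calls, 38424 higher and 90880 lower. Leaving out a pair gave 98080 to 165734 calls, 2994 to 4517 higher and 95086 to 161221 lower. A replicate block for the pairs gave 7547 higher and 191643 lower. The other settings moved no count of this comparison by over 1.5 times. On untransformed shares 43979 sites differed between E-to-Q and wild-type forms.

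Counting each called site once turned the sign of small differences, to -0.49 points for a 5′ guanosine, 0.232 for a 5′ uridine, 0.0013 for CAU, -0.144 for GAG, 0.311 for UAG, 0.0132 for asparagine to serine (-0.0235 to 0.0171 with 1 pair left out), -0.074 and -0.492 for the unpaired probability of the 5′ and 3′ neighbour. The cause was not tested. Scaling raises every ADAR2 share relative to ADAR1, and so turned 7 sites with near-equal shares and no call to higher with ADAR2, by 0.724 on the arcsine scale at RPL7L1, 0.7004 at BPNT1, 0.769 at PPP1R15A, 0.744 at SKA1, 0.769 at SDC4, 0.819 at ZFAND3 and 0.8002 at TUFT1. Of the sites called, RBBP4 and MAN2B2 missed the threshold on both log2 scales, with the block, without any 1 pair and in NES libraries alone, and SMC1A, SMC4 and sites in COPZ1 and H3F3B missed it after scaling.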

Other observations

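A short stretch recurred among the sites edited far more by ADAR1. The 12 bases below, with the edited adenosine and its neighbours in capitals, surround the COPA site and also the MRPS10 site. They were searched for on the message strand, with the edited base at the same place, after those windows had been seen.
Recurring window: ggaggctGAGgc

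It was found around 60 of the 352425 annotated sites, in 59 genes, 56 of them in 3′ UTRs. None was higher with ADAR2 DD (E488Q) past the limma threshold and 50 were lower (83.3%, beside 53.9% of all sites). The COPA and MRPS10 sites, which gave the stretch, had been named for their difference and are among the 50. The percentage is therefore a description and no test of the stretch. The median of the 60 means was 0.347% with ADAR2, where the highest was 3.81%. With ADAR1 it was 17.4%, and the highest, 68.1%, was that of the COPA site itself. With the wild-type domains the medians were 0.542% and 5.13%, and in untransfected cells 0%. These sites share their sequence, so reads from 1 copy can be placed at another, and they are not independent of each other.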
